A study of Rattus norvegicus with 6 samples.

Results

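The insulin-like growth factor (IGF) ligands and their binding proteins were followed in the retina of streptozotocin-diabetic rats through 8 genes, namely the ligand genes Igf1 and Igf2 and the binding protein genes Igfbp2, Igfbp3, Igfbp4, Igfbp5, Igfbp6 and Igfbp7. They were taken by symbol from a deposited expression table of 34170 genes, and each symbol occurred once. The diabetic group held 3 male Sprague-Dawley rats given intraperitoneal streptozotocin, which kills insulin-producing beta cells, at 60 mg/kg after fasting for 12 h and on 5 successive days. The control group held 3 male rats of the same stock that were injected with citrate buffer on the same schedule of days. Diabetes was called when fasting glucose exceeded 16.7 mmol/L at 1 week after the last injection, so the model is one of chemical beta cell loss. The rats weighed 100.4, 102.5 and 104 g in the diabetic group and 103.4, 110.5 and 106 g in the control group, and the labels give no age and no day of tissue collection. No genetic alteration is labelled, and the label "Diabetic" in the genotype field stands for the treatment.

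IGF1 and IGF2 are small secreted hormones related to insulin that act through the IGF1 receptor tyrosine kinase, while the IGF2 receptor takes up IGF2 for degradation. Binding proteins hold the ligands outside the cell, lengthen their life and keep them from the receptor, and proteases that cut a binding protein set the ligand free. In the retina and its vessels the system is known for effects on neuronal survival and on vessel growth. Transcript abundance was measured by poly-A RNA sequencing and given as FPKM, fragments scaled by gene length and by the library's total, so levels can be set side by side between genes. Each library has its own labelled body weight and is taken as 1 animal, and the retina was sequenced whole. In such bulk samples fewer cells of a type and less RNA per cell cannot be told apart.

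The libraries held between 12417686 and 19115426 fragments. The rod list used to check the labelled tissue, with 7 of 7 genes in the table and none at 0, summed to 28521 to 32971 FPKM in diabetic libraries, against 34468 to 38530 FPKM in control libraries. Signs of tissue outside the retina differed between libraries. The summed lens list of 9 genes lay between 10.3 and 48.3 FPKM in diabetic libraries and between 13.4 and 393.4 FPKM in control libraries, with control 3 at the top. The summed list of cornea, iris and ciliary body, with 6 of 6 genes in the table, was highest in diabetic 1 at 19.6 FPKM and in control 2 at 15.3 FPKM, against 3.78 to 8.81 FPKM in the other libraries. In 1 gene of the list, Optc, the groups did not overlap, at 2.64 to 3.54 FPKM in diabetic and 0.969 to 1.59 FPKM in control libraries. Of all genes averaging 0.5 FPKM or more, 26.2% had groups that did not overlap.

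Some of the starts are shown here, because Igfbp2 had the greatest difference of the 8 genes, Igf2 was the ligand gene below control, and Igfbp7 was the most abundant and had the smallest difference. Each line gives the 250 bases before the annotated start, 5′ to 3′ on the strand of the gene, from RefSeq in build GRCr8. Capitals mark a GC box (GGGCGG, bound by Sp1-type factors) or an E-box (CACGTG) on either strand.
Igfbp2 (chr9:81864561-81864810, plus strand): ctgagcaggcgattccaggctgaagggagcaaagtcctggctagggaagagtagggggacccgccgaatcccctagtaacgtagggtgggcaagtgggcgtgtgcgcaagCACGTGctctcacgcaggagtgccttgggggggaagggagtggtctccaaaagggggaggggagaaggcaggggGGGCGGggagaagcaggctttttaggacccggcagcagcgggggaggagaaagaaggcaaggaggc
Igf2, the downstream of 2 listed starts (chr1:207250476-207250725, minus strand): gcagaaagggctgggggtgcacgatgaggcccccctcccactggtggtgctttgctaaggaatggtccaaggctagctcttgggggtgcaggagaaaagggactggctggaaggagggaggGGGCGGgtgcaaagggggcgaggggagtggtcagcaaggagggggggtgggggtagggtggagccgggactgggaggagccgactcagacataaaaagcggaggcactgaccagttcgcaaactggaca
Igfbp7 (chr14:31091486-31091735, plus strand): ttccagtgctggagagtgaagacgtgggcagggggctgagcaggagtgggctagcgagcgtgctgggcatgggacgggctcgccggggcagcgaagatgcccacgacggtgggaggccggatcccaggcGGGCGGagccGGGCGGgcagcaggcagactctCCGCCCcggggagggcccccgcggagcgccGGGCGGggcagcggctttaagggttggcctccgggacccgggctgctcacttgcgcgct
All 8 genes matched an entry, with 9 starts in all. Igfbp2 had 1 GC box at position -66 and 1 E-box at position -140, counted to the first base of the match. Igf2 had 1 GC box at position -129 in the start shown and 0 in the other, and Igfbp7 had 4. Of 33469 rat windows of this length, 30.5% held a GC box and 5.59% held an E-box. A TATA box (TATAAA, in 12.9% of windows) occurred in the Igfbp4 window, and a FoxO core (GTAAACA, in 3.21% of windows) in the Igfbp6 window. The GC share of the windows was 64% for Igfbp2, 63.6% for the Igf2 start shown and 74.4% for Igfbp7, against a median of 51.2% over all windows. The expression table does not show which start was used, and these matches are descriptions of sequence.

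The comparison of diabetic with control retina asks whether ligand and binding protein transcripts differ after beta cell loss. Of the 8 genes, 6 reached the mean of 0.5 FPKM that was needed for the test, and Igfbp3 and Igfbp6 did not. None of the 6 passed a Benjamini-Hochberg adjusted p of 0.05 over the 16363 genes tested with limma, where 0 genes passed in all (0% of genes) and 2 passed with limma's voom on rebuilt fragments, neither of them a member. At an unadjusted p below 0.05 stood 1 member in the higher direction, Igfbp2 (9.15% of all tested genes), and 1 in the lower direction, Igf2 (10.7% of all tested genes). In all 3255 genes, or 19.9%, had such a p, 1498 of them higher and 1757 lower in diabetic retina. That split was 3009 higher and 692 lower after rescaling to TPM, 2210 and 1203 with voom, and 1140 and 2325 after median centring. The groups did not overlap in 3 of the 6 tested members, namely Igfbp2, Igfbp5 and Igf2, against 26.2% of all tested genes, so the differences below are values that did not pass. The median log2 difference of the 6 was 0.19, against 0.00034 for all tested genes, and rescaling to TPM moved that of all genes to 0.13.

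**Figure D1:**
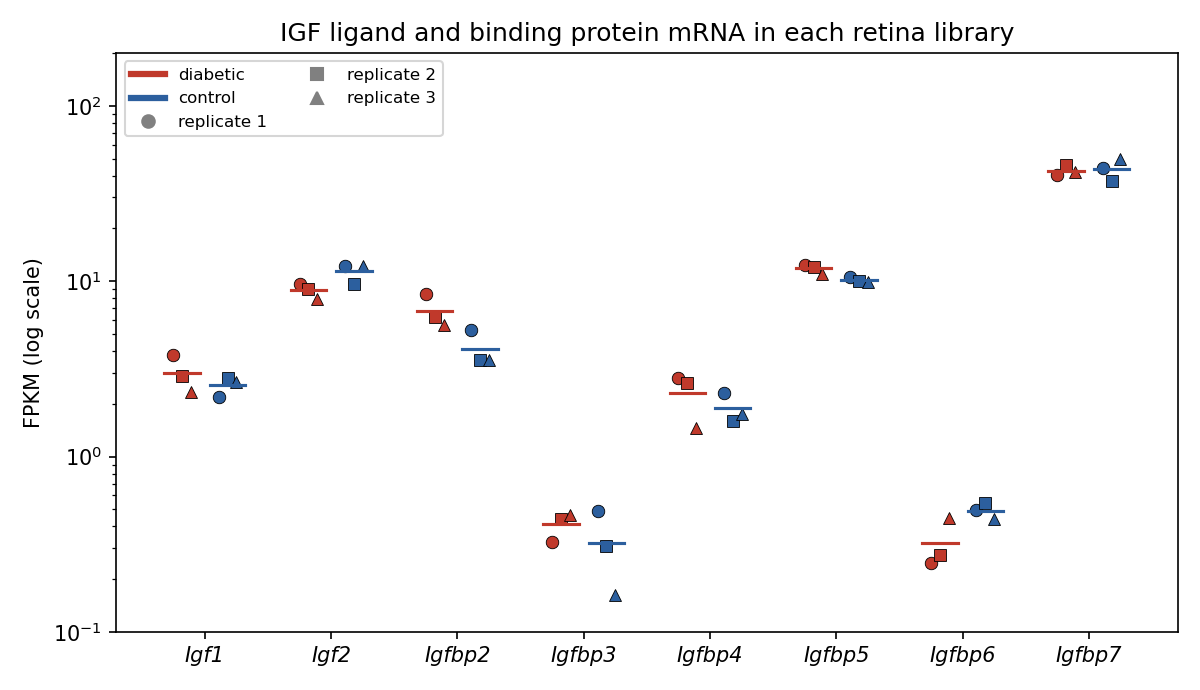
FPKM (log scale) of the 8 genes in each of the 6 libraries, with diabetic in red to the left of control in blue, 1 symbol per replicate number and a line at the group mean. Igfbp7 lies highest, at 37.3 to 49.8 FPKM, Igfbp3 and Igfbp6 lie below 0.6 FPKM, and the groups are apart only in Igfbp2, Igfbp5 and Igf2.

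Igf2, the imprinted growth factor gene known for fetal growth, was the main ligand transcript. It had 9.66, 9.01 and 7.94 FPKM in diabetic 1, 2 and 3, against 12.2, 9.69 and 12.2 FPKM in control 1, 2 and 3. All diabetic libraries lay below all control libraries, but diabetic 1 and control 2 were nearly level, at 9.657 and 9.690 FPKM. This holds for FPKM as deposited, which summed to 467488 to 500107 in diabetic and 514771 to 552093 in control libraries. Scaled to these totals, diabetic 1 and diabetic 2 both lay above control 2, so the groups overlapped. The group means were 8.87 ± 0.869 FPKM in diabetic and 11.4 ± 1.44 FPKM in control retina (SD, n = 3 each), which is -0.34 ± 0.13 (SE) as a log2 difference, with a 95% interval from -0.64 to -0.04 (unadjusted p = 0.0327, adjusted p = 0.214, limma). The fragments behind each value numbered between 661 and 1175, so counting error was 3.32% of the level in diabetic and 3.42% in control libraries, against a spread between animals of 9.80% in diabetic and 12.7% in control. The difference was -0.21 after rescaling to TPM, -0.48 with the gene length trend removed, and between -0.44 and -0.26 with 1 library left out. Its unadjusted p no longer lay below 0.05 under several of these, being 0.215 with TPM, 0.0652 without diabetic 2, 0.108 without diabetic 3, 0.0975 without control 1 and 0.0921 without control 3 (limma). The files place Igf2 (ENSRNOG00000020369) on the minus strand of chromosome 1 from 215828102 to 215846911 (the files' own coordinates, whose build the labels leave unnamed). The microRNA gene Mir483 and a pseudogene that lie inside it were listed at 0 in all libraries.

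Igf1, the growth factor gene that growth hormone induces in liver, was a minor ligand transcript. It had 3.79, 2.88 and 2.34 FPKM in diabetic 1, 2 and 3, against 2.20, 2.79 and 2.67 FPKM in control 1, 2 and 3. Diabetic 1 was the highest library and diabetic 3 lay within the control range, so the groups overlapped. The means were 3.00 ± 0.736 FPKM in diabetic and 2.55 ± 0.316 FPKM in control retina (SD, n = 3 each), with a log2 difference of 0.18 and a 95% interval from -0.27 to 0.64 (adjusted p = 0.635, limma). The difference was 0.03 without diabetic 1, 0.10 without control 1, and 0.32 both without diabetic 3 and after rescaling to TPM. With 65 to 139 fragments per library, the control libraries varied by 12.4%, about the counting error of 12.2%, and the diabetic libraries by 24.5% against a counting error of 9.93%. The ratio of Igf2 to Igf1 within a library was 2.55, 3.13 and 3.40 in diabetic and 5.57, 3.47 and 4.54 in control libraries. These ranges did not overlap, but diabetic 3 (3.40) and control 2 (3.47) lay closer together than the counting error of Igf1. The gene (ENSRNOG00000004517) lies on the plus strand of chromosome 7 from 28412198 to 28486609.

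Igfbp2, whose protein binds IGF2 with high affinity and carries an integrin-binding motif, had the greatest difference of the 8 genes. It had 8.41, 6.27 and 5.62 FPKM in diabetic 1, 2 and 3, against 5.27, 3.55 and 3.53 FPKM in control 1, 2 and 3. All diabetic libraries lay above all control libraries, with diabetic 3 and control 1 closest to each other. The means were 6.77 ± 1.46 FPKM in diabetic and 4.12 ± 0.998 FPKM in control retina (SD, n = 3 each), a ratio of 1.64, or 0.66 ± 0.20 (SE) as a log2 difference, with a 95% interval from 0.18 to 1.13 (unadjusted p = 0.0139, adjusted p = 0.170, limma). The values rested on 205, 136 and 136 fragments in diabetic and 115, 55 and 58 fragments in control libraries. Counting error was 8.08% and 12.1% of the level in diabetic and control, against a spread between animals of 21.6% in diabetic and 24.2% in control. The sign held under all 19 alternatives, but many of them could not change it. Groups that do not overlap keep their sign when 1 library is left out, and filters, variance settings and the replicate block leave the difference as it is. With 1 library left out the difference ran from 0.50 without diabetic 1 to 0.83 without control 1. After rescaling to TPM the difference was 0.82, and the adjusted p over all alternatives lay between 0.118 and 0.369 (limma).

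Igfbp5, whose protein attaches to extracellular matrix, was the second most abundant member in diabetic retina. It had 12.4, 12.03 and 11.1 FPKM in diabetic 1, 2 and 3, against 10.6, 10.07 and 9.95 FPKM in control 1, 2 and 3. The groups did not overlap, and the gap between diabetic 3 and control 1 was small. The means were 11.8 ± 0.694 FPKM in diabetic and 10.2 ± 0.350 FPKM in control retina (SD, n = 3 each), which is 0.20 ± 0.09 (SE) as a log2 difference, with a 95% interval from -0.01 to 0.41 (unadjusted p = 0.0557, adjusted p = 0.261, limma). It was the most evenly measured of the 8 genes, with 714 to 1384 fragments per library and a spread of 5.87% between diabetic and 3.43% between control animals. With the gene length trend removed the difference was 0.05, and after rescaling to TPM it was 0.34. Its gene model is long, at 5866 nt, against 1280 nt for Igfbp2, whose difference was 0.75 with the length trend removed.

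Igfbp2 and Igfbp5 are neighbours in the genome. On chromosome 9, Igfbp2 (ENSRNOG00000016957) runs on the plus strand from 80118029 to 80144789 and Igfbp5 (ENSRNOG00000017206) on the minus strand from 80150211 to 80167033, so their 3′ ends face each other across 5421 bases. The 6 libraries had the same rank order in both genes, from diabetic 1 at the top to control 3 at the bottom. The ratio of Igfbp2 to Igfbp5 was 0.679, 0.522 and 0.509 in diabetic 1, 2 and 3, against 0.497, 0.353 and 0.355 in control 1, 2 and 3. These ranges did not overlap, but diabetic 3 (0.509) and control 1 (0.497) lay closer together than the counting error of Igfbp2. The highest ratio was again that of diabetic 1, the library with the highest corneal and ciliary sum. Control 2, next in that sum, had the lowest ratio, nearly level with control 3, and a link was not tested.

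Igfbp7, whose protein binds IGFs weakly and is abundant around blood vessels, was the most abundant member. It had 40.1, 46.2 and 41.9 FPKM in diabetic 1, 2 and 3, against 44.4, 37.3 and 49.8 FPKM in control 1, 2 and 3. The diabetic values lay inside the control range. The log2 difference was -0.03 with a 95% interval from -0.31 to 0.25 (adjusted p = 0.916, limma), so the data leave room for a shift of that size either way. Its sign flipped with several settings, to 0.11 after rescaling to TPM, 0.06 after quantile normalization, 0.08 with the length trend removed and 0.01 with voom. Its gene (ENSRNOG00000002050) lies on the plus strand of chromosome 14 from 33010300 to 33070190 and overlaps the end of Polr2b on the other strand over 113 bases, where reads cannot be told apart without strand. Polr2b, an RNA polymerase II subunit gene, was at 30.2 to 35.5 FPKM in diabetic and 31.5 to 36.4 FPKM in control libraries.

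Igfbp4, whose protein is cut by the protease pregnancy-associated plasma protein A, had 2.80, 2.63 and 1.46 FPKM in diabetic 1, 2 and 3, against 2.29, 1.60 and 1.76 FPKM in control 1, 2 and 3. Diabetic 3 was the lowest of all libraries, and the groups overlapped. The log2 difference was 0.21 with a 95% interval from -0.37 to 0.78 (adjusted p = 0.679, limma). It ranged from 0.07 without diabetic 1, with 0.11 without diabetic 2 and 0.12 without control 2, to 0.33 without control 1 and 0.44 without diabetic 3, and was 0.13 after quantile normalization and 0.35 after rescaling to TPM. The gene (ENSRNOG00000010635) lies on the plus strand of chromosome 10 from 86950557 to 86962578.

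Igfbp3 encodes the main IGF carrier of blood plasma and Igfbp6 a binding protein that prefers IGF2, and both rested on few fragments. Igfbp3 had 0.327, 0.441 and 0.462 FPKM in diabetic 1, 2 and 3, against 0.488, 0.309 and 0.162 FPKM in control 1, 2 and 3, which rest on 15, 18 and 21 and on 20, 9 and 5 fragments. The groups overlapped. Igfbp6 had 0.246, 0.276 and 0.446 FPKM in diabetic 1, 2 and 3, against 0.494, 0.542 and 0.438 FPKM in control 1, 2 and 3. These values rest on 5, 5 and 9 fragments in diabetic and 9, 7 and 6 in control libraries, where counting error alone is 41.3% and 37.4% of the level. Diabetic 3 lay within the control range of Igfbp6, so these groups overlapped too, and at this depth no difference was established. Without the filter on low values the adjusted p was 0.686 for Igfbp3 and 0.420 for Igfbp6 (limma), at log2 differences of 0.17 and -0.28. The Igfbp3 value was unsteady, at 0.02 without control 3, 0.31 without control 1, 0.03 after quantile normalization, 0.33 after rescaling to TPM, 0.44 with voom, and 0.35 and 0.10 with pseudocounts of 0.1 and 1. Igfbp3 (ENSRNOG00000061910) lies on the minus strand of chromosome 14 from 87457647 to 87465374, with Igfbp1 beside it at a gap of 3861 bases, and Igfbp6 (ENSRNOG00000010977) on the plus strand of chromosome 7 from 143749221 to 143754054.

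**Figure D2:**
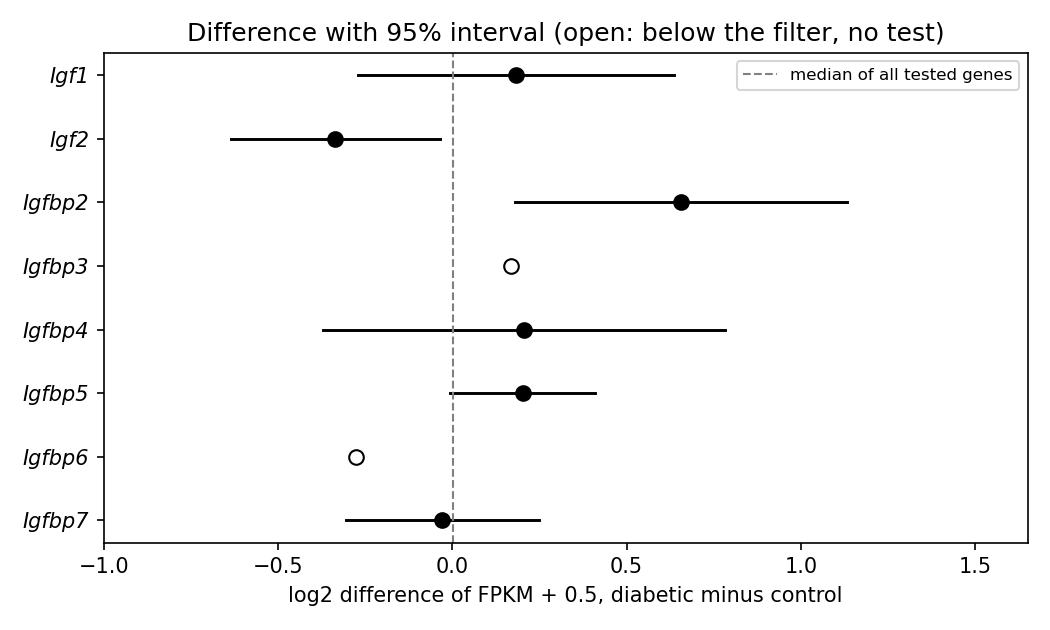
Log2 difference of FPKM + 0.5, diabetic minus control, for each member, ordered as ligands and then binding proteins, with the 95% interval from limma as a bar and the median of all tested genes as a dashed line. The interval of Igfbp2 runs from 0.18 to 1.13 and that of Igf2 from -0.64 to -0.04. Open points mark Igfbp3 and Igfbp6, which were below the filter and have no interval.

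In order of mean level over the 6 libraries the members ran Igfbp7 (43.3 FPKM), Igfbp5 (11.02), Igf2 (10.1), Igfbp2 (5.44), Igf1 (2.78), Igfbp4 (2.09), Igfbp6 (0.407) and Igfbp3 (0.365). Igfbp7 was above Igfbp5, Igfbp2 above Igf1, and Igfbp4 above Igfbp6, with no overlap of values in either group. Igfbp5 exceeded Igf2 in 3 of 3 diabetic libraries without overlap and in 1 of 3 control libraries, so their order differed between the groups. Igf2 was above Igfbp2 in every library, with values that overlapped between diabetic libraries and not between control libraries. Igf1 and Igfbp4, and Igfbp6 and Igfbp3, did not differ beyond their spread in either group. Igfbp6 lay above Igfbp3 in 0 of 3 diabetic and 3 of 3 control libraries, an order that rests on few fragments.

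As a share of the summed FPKM of the 8 genes, Igf2 made up 12.4%, 11.3% and 11.1% in diabetic 1, 2 and 3, against 15.7%, 14.7% and 15.1% in control 1, 2 and 3. Igfbp2 made up 10.8%, 7.87% and 7.90% in diabetic, against 6.77%, 5.40% and 4.39% in control libraries. The groups were apart in both shares, whereas Igfbp7 made up between 51.6% and 58.8% in diabetic and between 56.6% and 61.9% in control libraries. The summed binding protein FPKM stood at 4.78, 5.70 and 5.93 times the summed ligand FPKM in diabetic 1, 2 and 3, against 4.40, 4.27 and 4.43 times in control 1, 2 and 3. The control ratios were close to each other and all below the diabetic ones. These within-library ratios are not moved by a common scaling of a library, and since they sum chosen genes they are given with no test.

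**Figure D3:**
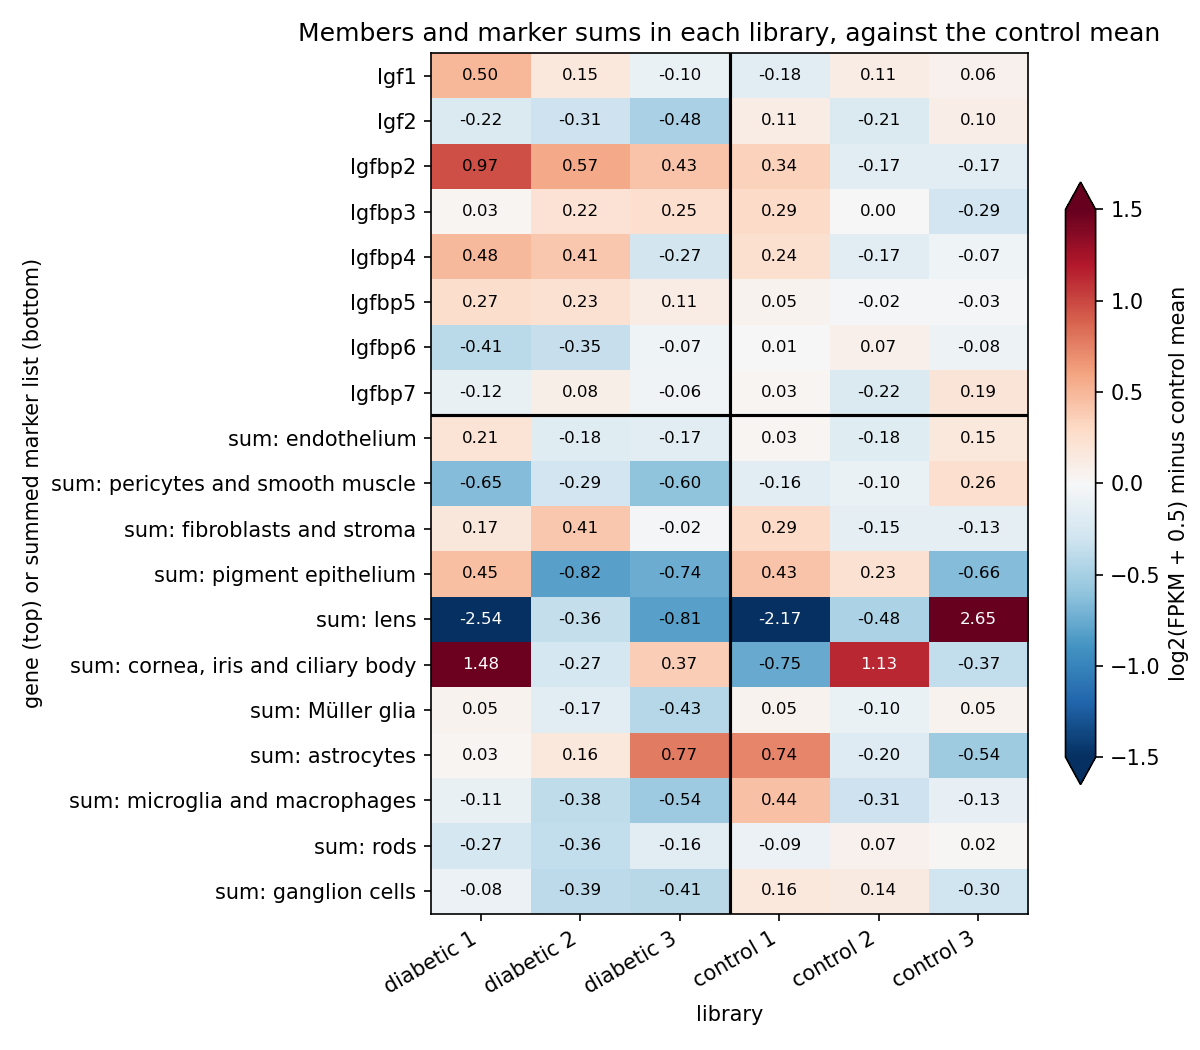
Log2(FPKM + 0.5) minus the control mean, for each member (top rows) and for the summed FPKM of each marker list (bottom rows), in the 6 libraries, with diabetic at the left. Each cell prints its value. Igfbp2 is above the control mean in all diabetic libraries and in control 1. Diabetic 1 is high in Igfbp2 (0.97), Igf1 (0.50), Igfbp4 (0.48) and the corneal and ciliary sum (1.48). Control 2 is also high in that sum (1.13), with Igfbp2 at -0.17, Igf1 at 0.11 and Igfbp4 at -0.17.

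Marker lists of cells that could hold these transcripts were set beside the members. For pericytes and smooth muscle, with 10 of 10 genes in the table and none at 0, the summed level was 10.5 to 13.5 FPKM in diabetic libraries, against 14.9 to 20.03 FPKM in control libraries. This list and the rod list, at the values given above, were below every control library in all 3 diabetic libraries, as Igf2 was, and their part in the Igf2 difference was not tested. The endothelial list, with 11 of 12 genes in the table and Cldn5 at 0 in all libraries, summed to 57.7 to 75.7 FPKM in diabetic libraries, against 57.8 to 73.01 FPKM in control libraries. Kdr alone made up most of it, at 42.4 to 63.4 FPKM in diabetic and 45.2 to 53.8 FPKM in control libraries. Of its 8 tested genes, 6 were lower and 2 higher in diabetic retina. The groups did not overlap in 2 of the 8, Esam and Eng, both lower, against 26.2% of all tested genes. The list of fibroblasts and stroma, with 8 of 8 genes in the table and none at 0 throughout, summed to 15.1 to 20.5 FPKM in diabetic libraries, against 13.7 to 18.8 FPKM in control libraries. The pigment epithelium list, with 9 of 10 genes in the table, summed to 36.5 to 88.8 FPKM in diabetic libraries, against 40.9 to 87.3 FPKM in control libraries, and was highest in diabetic 1. Most of that sum was Ttr, at 29.8 to 74.3 FPKM in diabetic and 30.4 to 73.002 FPKM in control libraries. Its pigment genes Tyrp1 (0.726 to 3.01 FPKM in diabetic, 3.95 to 4.46 FPKM in control) and Pmel (0.564 to 1.27 FPKM in diabetic, 1.28 to 3.19 FPKM in control) were lower in every diabetic library than in any control library. In Pmel, diabetic 1 and control 3 were nearly level, at 1.271 and 1.280 FPKM, and scaled to the FPKM totals the groups overlapped. The unadjusted p of Tyrp1 and Pmel was 0.00987 and 0.0163 (adjusted p = 0.157 and 0.176, limma). In FPKM as deposited they were the 2 of the list's 7 tested genes without overlap, against 26.2% of all tested genes. Of the 7, 5 were lower and 2 higher, namely Rpe65 (log2 difference 0.02) and Best1 (0.14). The Müller glia list of 8 genes summed to 981 to 1365 FPKM in diabetic libraries, against 1231 to 1368 FPKM in control libraries, and the astrocyte list of 4 genes to between 47.1 and 79.4 and between 31.7 and 77.4 FPKM. The microglia and macrophage list of 8 genes summed to 11.4 to 15.5 FPKM in diabetic libraries, against 13.5 to 22.95 FPKM in control libraries, and the ganglion cell list of 7 genes to between 336 and 422 and between 364 and 500.4 FPKM. Diabetic 1 was at the top of the corneal, pigment epithelium and endothelial sums and of the Igfbp2, Igfbp5, Igf1 and Igfbp4 values at once. The endothelial rank came from Kdr, and with Kdr left out diabetic 1 had the lowest endothelial sum. With Ttr left out, control 2 was level with diabetic 1 in the pigment epithelium sum. Control 2, next in the corneal sum at 15.3 FPKM, had 3.55 FPKM of Igfbp2, 1.60 FPKM of Igfbp4 and 2.79 FPKM of Igf1. Control 1 was next in the pigment epithelium sum, at 87.3 FPKM. Without diabetic 1 the Igfbp2 difference was 0.50 (adjusted p = 0.294, limma). The part of such tissue in the member values was not tested.

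**Figure D4:**
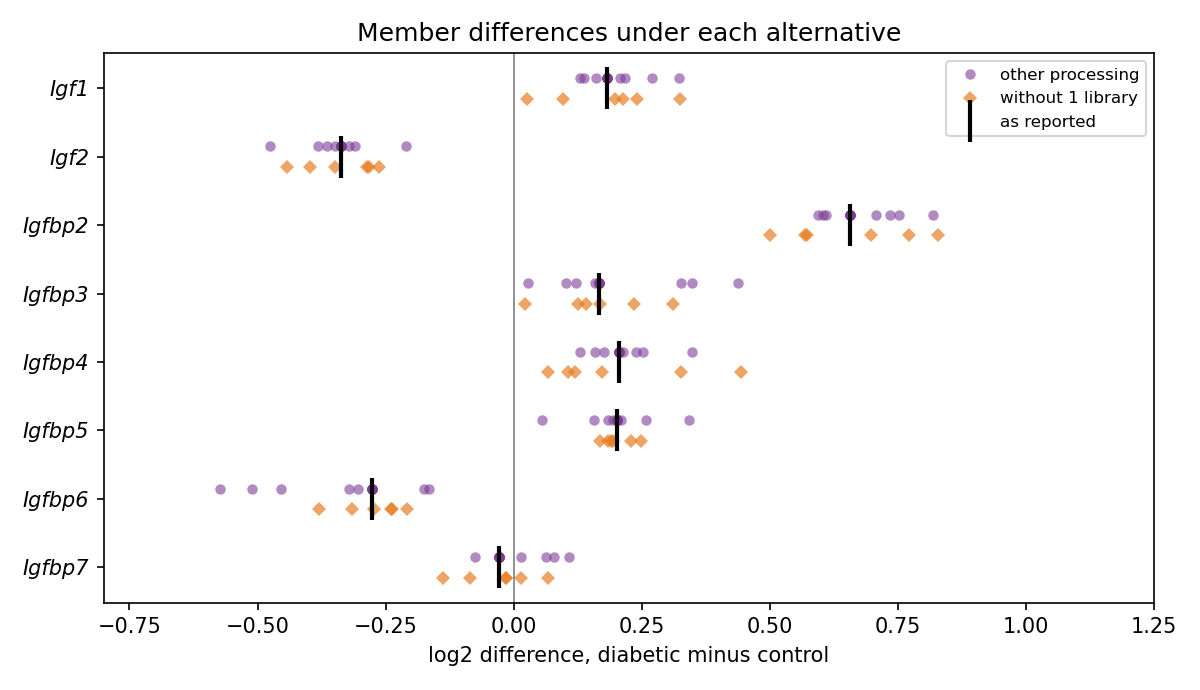
Log2 difference of each member, diabetic minus control, as reported (black bar), under other processing (purple circles) and with 1 library left out (orange diamonds). Igfbp2 stays between 0.50 and 0.83 and Igf2 between -0.48 and -0.21, while Igfbp7 falls on both sides of 0.

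Of 33 further genes of the IGF system, 31 were in the table and 17 were tested. None passed over all genes (0%), and at an unadjusted p below 0.05 stood 6 in the higher direction (9.15% of all tested genes) and 0 in the lower direction (10.7% of all tested genes). The median log2 difference of the 17 was 0.27, against 0.00034 for all tested genes. Among the 17, the groups did not overlap in Igf1r, Insr, Adamts1, Ccn4 and Stat5b, against 26.2% of all tested genes. Of the 4 receptor genes, Igf1r (log2 difference 0.75), Insr (0.50) and Igf2r (0.32) were among the 6, and Igf1r had 12.5, 13.2 and 12.1 FPKM in diabetic 1, 2 and 3, against 5.52, 8.09 and 8.60 FPKM in control 1, 2 and 3. The Igf1r groups were well apart, at an adjusted p of 0.129 in limma. The IGF2 clearance receptor gene Igf2r overlapped, with 7.05 to 8.22 FPKM in diabetic and 5.64 to 7.14 FPKM in control libraries. With the gene length trend removed the difference was 0.10 for Igf2r (unadjusted p = 0.340, limma) and 0.32 for Insr. The unadjusted p of Igf2r was also above 0.05 after quantile normalization (0.0648) and median centring (0.0629), and without diabetic 2, diabetic 3, control 1 or control 2 (0.110 to 0.117).

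Among proteases that act on binding proteins and the stanniocalcins that inhibit such proteases, Adamts1 had 9.81, 13.8 and 14.6 FPKM in diabetic 1, 2 and 3, against 7.63, 5.77 and 8.12 FPKM in control 1, 2 and 3 (log2 difference 0.78, adjusted p = 0.137, limma). The groups did not overlap. Pappa2, which cuts IGFBP3 and IGFBP5, was low, at 0.815 ± 0.250 FPKM in diabetic and 0.453 ± 0.186 FPKM in control retina (SD, n = 3 each), with a log2 difference of 0.47, and Stc1 had -0.10. The Pappa2 difference was 0.23 with the gene length trend removed, 0.71 after rescaling to TPM, 0.75 with a pseudocount of 0.1 and 0.93 with voom. Of the genes whose proteins share the IGFBP domain, Ccn4, a matricellular protein gene induced by Wnt signalling, had 3.71, 2.83 and 3.60 FPKM in diabetic and 1.36, 2.13 and 1.85 FPKM in control libraries, a log2 difference of 0.77 (adjusted p = 0.137, limma). These groups did not overlap either. Ccn2, the connective tissue growth factor gene, had -0.08 and the protease gene Htra1 had 0.03.

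The gene of the Igf2 mRNA-binding protein Igf2bp2 had a log2 difference of 0.33 (adjusted p = 0.386, limma), with 7.47, 10.9 and 12.6 FPKM in diabetic and 7.75, 7.18 and 9.01 FPKM in control libraries. The groups overlapped through diabetic 1, and the difference was 0.53 without diabetic 1 (unadjusted p = 0.00803, adjusted p = 0.217, limma) and 0.18 without diabetic 3. The adjusted p lay between 0.217 and 0.682 over all alternatives. Its relative Igf2bp1 was listed at 0 in all 6 libraries and Igf2bp3 was between 0.321 and 0.495 FPKM. In the growth hormone axis, Stat5b, a transcription factor gene that acts below the growth hormone receptor, had 33.5, 28.8 and 26.05 FPKM in diabetic and 22.6, 24.5 and 21.8 FPKM in control libraries, with no overlap (log2 difference 0.34, adjusted p = 0.172, limma). Stat5a had 0.27, with 0.14 without diabetic 1, 0.47 without diabetic 3 and 0.42 after rescaling to TPM, and Jak2 had 0.09. Of the remaining binding partners, Igfbpl1 had 0.04, and Igfbp1 and Igfals, the stabilising subunit of the plasma complex, were below the filter. Ins1 was listed at 0 in all libraries and Ins2 was at or below 0.526 FPKM in each of them.

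**Figure D5:**
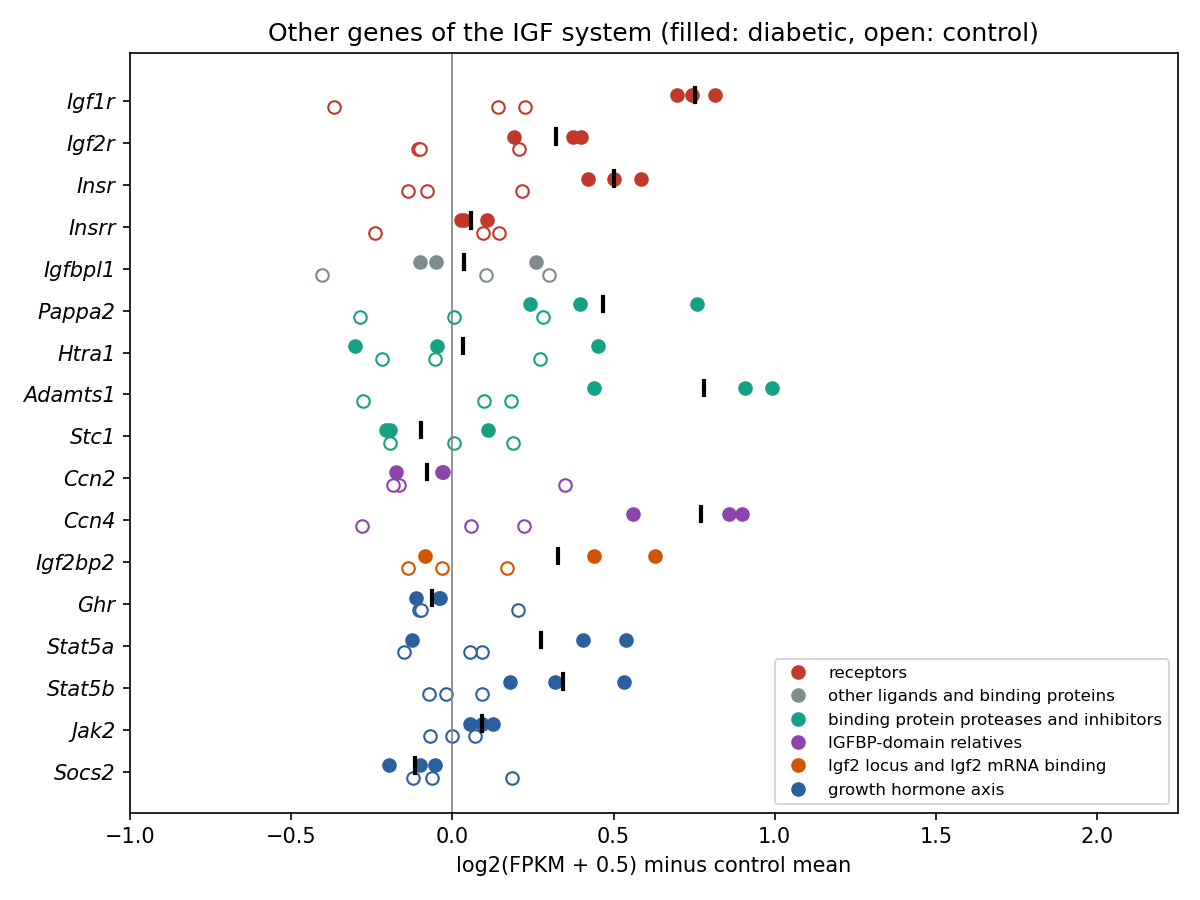
Log2(FPKM + 0.5) minus the control mean for the 17 tested genes of the IGF system outside the 8 members, with diabetic libraries as filled and control libraries as open circles, the mean difference as a black tick and colours for the gene group. Igf1r, Insr, Adamts1, Ccn4 and Stat5b show filled circles to the right of all open ones. Of all tested genes, 26.2% have groups that do not overlap, in either direction.

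The genes whose values followed a member most closely over the 6 libraries were taken by Pearson r on log2(FPKM + 0.5) among 13785 other genes averaging 1 FPKM or more. For Igfbp2 they were Cdkl1 (r = 0.993), Slc7a11 (0.985), the cystine importer gene, and Plekhb2 (0.982). For Igfbp5 they were Atp2b4 (0.996), a plasma membrane calcium pump gene, Pla2g4a (0.991) and Ckap5 (0.990). For Igf2 they were Zfp467 (0.992), Penk (0.983), the proenkephalin gene, and Gsr (0.983), the glutathione reductase gene. Mkln1 (0.992), Gcc2 (0.990) and Nebl (0.986) were nearest to Igf1, and Ppm1f (0.989), Prkar2b (0.984) and AABR07043823.2 (0.984) to Igfbp4. AABR07054983.1 (0.998), Ddx31 (0.996) and LOC102553190 (0.988) were nearest to Igfbp7. Between 19 and 50 genes reached an r of 0.95 with each member. With 6 libraries that share the group difference and their depth, these are descriptions of likeness.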

How the data were processed

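Poly-A RNA from 6 rat retinas was sequenced as read pairs, and the labels' protocols name no strand marking. The submitters' processing notes list HISAT2 2.0.5, an aligner. The counter and the build behind the coordinates were not given in the sources used here. Values are the authors' FPKM per gene as deposited, with gene length, per the file headers. FPKM times length came out as whole multiples of 1 step in 100% of values, within 0.05 of a whole fragment, which gave the fragments and their counting error (the root of the mean of 1 over the fragments). Floors and such errors cover counting error only.

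Genes averaging 0.5 FPKM or more entered limma 3.58.1 (R 4.3.3) as log2(FPKM + 0.5), with group as the only term, an intensity trend, two-sided tests and Benjamini-Hochberg adjustment over all tested genes. The log2 scale with a pseudocount understates the change of low genes. The functions were tested on simulated data. The members and gene lists were chosen with earlier results of these data known. From each further list the 3 genes of smallest p are named, and other genes named were chosen after their values were seen. Pappa, H19, Pecam1 and Dct were not analysed here. Alternatives were other pseudocounts, filters, scalings and limma settings, voom on the fragments, a replicate block and fits that omit 1 library. Libraries of a group differed by more than sampling noise (chi-square over its degrees of freedom 10.7 or more). matplotlib 3.10.9 drew the figures. Methylation (m6A) data were not analysed here.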

Additional observations from a re-analysis of the deposited data

How the results depend on the processing

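Across 152 values of the 8 members under alternatives, 0 of those with an adjusted p passed the threshold. Igfbp3 and Igfbp6 had an adjusted p only without the filter on low values. The filters, limma's variance settings and the replicate block leave the log2 difference as reported, so no sign could change there. With that limit, 7 of the 8 genes kept their sign throughout. The exception was Igfbp7, whose log2 difference of -0.03 became 0.11 with TPM, 0.063 with quantile normalization, 0.079 with the gene length trend removed and 0.014 with voom, and lay between -0.14 and 0.068 with 1 library left out (0.015 without diabetic 1, 0.068 without control 3). The value of Igfbp6, -0.28, was -0.51 with a pseudocount of 0.1 and -0.57 with voom. The count of genes past the threshold, 0, was 2 with voom and between 0 and 4 with 1 library left out, namely 4 without diabetic 1, 1 without diabetic 2 and 1 without control 2. The causes were not tested. Of the 14 further genes named, 9 kept their sign. Reversed were Stc1 (0.020) and Ccn2 (0.054) with TPM, Igfbpl1 with quantile normalization (-0.017) and median centring (-0.0098), Htra1 with median centring (-0.012) and Jak2 with the length trend removed (-0.020). With 1 library left out, Igfbpl1 lay between -0.17 and 0.19 (-0.17 without control 1, -0.07 without diabetic 1), Ccn2 was 0.10 without control 1, and Htra1 lay between -0.18 and 0.20 (-0.18 without diabetic 2, -0.08 without control 2). With the replicate block 0 genes passed, and the adjusted p of Igfbp2 was 0.227. Same-numbered libraries had correlations of deviations of -0.05, -0.08 and 0.00061, and no library correlated best with the one of its own number, so the numbers were not taken as pairs. The sign of Igfbp3, 0.17, held, but its value ran from 0.02 without control 3 to 0.44 with voom. Depth limits Igfbp3 and Igfbp6, which rest on 5 to 21 and 5 to 9 fragments per library.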
